A study of Danio rerio with 4 samples.

Results

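The genes described here encode the extracellular matrix of the zebrafish brain and the receptors that hold cells to it: collagens, laminins, a nidogen, fibronectins, thrombospondins, SPARC, a fibulin, proteoglycans with their link proteins, and integrins. They were matched by gene symbol, and 46 of the 8793 genes named on the array matched, through 59 of the 10795 probe sets that carry 1 gene symbol. Where a gene had several probe sets, the one with the highest mean log2 signal over the arrays was taken. The study asked how brain transcripts differed between adult zebrafish kept at 28°C, labelled normal, and adult zebrafish cooled gradually to 10°C and held there for 10 days, labelled cold-stressed. Both groups held males and females, no line or genotype is named, and RNA of several whole brains was pooled for each array. Values of 4 Affymetrix Zebrafish Genome Arrays were analysed, 2 per condition, numbered 1 and 2 within each label, and a further set of RNA samples described by the study was not analysed here.

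In brain, matrix is concentrated in the meninges and in the basement membranes around blood vessels, where collagens, laminins and nidogens form sheets that glia, endothelium and pericytes rest on. Neural tissue itself has little fibrillar collagen and is filled instead by proteoglycans bound to hyaluronan through link proteins. Integrins are pairs of an alpha and a beta chain that bind matrix outside the cell and the actin skeleton inside it, through focal adhesion proteins.

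Signals were deposited on a linear scale, and the median over all probe sets lay between 96.3 and 102 on the 4 arrays. A gene was counted as kept when its mean log2 signal reached the 40th percentile of all probe sets, a signal of 74.5. This left 5982 genes, 15 of them matrix or integrin genes, and 31 matrix or integrin genes below it. The tissue label was checked with defining markers. The 8 neuron markers on the array had no signal under 575, and the 7 astroglial markers none under 357. No marker of any cell type was listed at 0, and the lowest signal was 5.18. Without detection calls, this does not show that a marker was expressed.

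Over the genes kept as a whole, arrays with the same label differed from each other more than most pairs of arrays with different labels. Over all genes kept, normal 1 and normal 2 were at least 2-fold apart at 15.3% of genes and cold 1 and cold 2 at 11.7%. Normal 2 and cold 1, with different labels, were so at 2.22%, and normal 1 and cold 2 at 6.44%. Between arrays of the same number the shares were 13.6% (normal 1 and cold 1) and 6.42% (normal 2 and cold 2). Over the 15 matrix genes kept, the median absolute log2 difference was 0.44 between the cold arrays and 0.31 between the normal arrays, against 0.15 between cold 1 and normal 2 and 0.43 between normal 1 and cold 2. Within a number it was 0.38 between normal 1 and cold 1 and 0.15 between normal 2 and cold 2. The labels were kept, no array was regrouped, and each gene is therefore given on every array and as the ratio of cold to normal between arrays of the same number. The study took its sets of RNA from separate acclimation experiments, but the sources used here do not say whether a number marks such an experiment. Cirbpb, for an RNA-binding protein known to be induced by cold, read 6741 (normal 1), 3258 (cold 1), 2853 (normal 2) and 7027 (cold 2), so its direction within arrays numbered 1 was opposite to that within arrays numbered 2. An exchange of labels within a number would turn the sign of every ratio of that number, and cannot be told apart from a difference between pools here. The direction of all values of cold against normal is uncertain to that extent, those of arrays numbered 1 included.

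**Figure D1:**
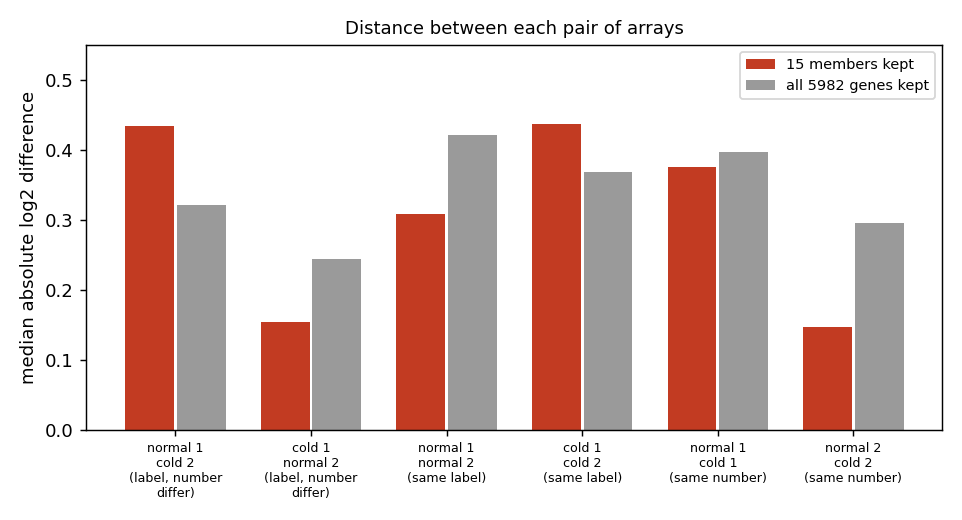
Median absolute log2 difference between each pair of arrays, for the 15 matrix and integrin genes kept (red) and for all 5982 genes kept (grey). For the matrix genes the bars are lowest, at 0.15, for cold 1 with normal 2 and for normal 2 with cold 2, and highest, at 0.44, for the 2 cold arrays.

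No matrix or integrin gene passed the test between conditions. In the fit with limma across 9301 probe sets, 0 were called at an adjusted p under 0.05, a background of 0.00%, and 0 of the 15 genes were called. At an unadjusted p under 0.05, 18 probe sets were higher and 28 lower in cold, none of them from these 15 genes, whose smallest p in limma was 0.136. With 2 arrays per condition the number of arrays limits the precision, and the p-values measure only how far these pools spread, which may be technical in part. What follows is thus a description of levels on each array. In RNA from whole brain, fewer cells of a type and less RNA per cell cannot be told apart.

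The type I collagen genes matched here, col1a1a and col1a2, had higher signals on each cold array than on each normal array. Type I collagen chains build the thick, tensile fibrils of connective tissue. The alpha 1 gene matched, col1a1a, had a signal of 115 (normal 1), 268 (cold 1), 169.7 (normal 2) and 182 (cold 2). The alpha 2 gene col1a2 had 166, 306, 202 and 226 in the same order, which all later lists of 4 signals keep. The excess lay mostly on cold 1. For col1a1a, cold 1 was 2.33-fold above normal 1, a log2 ratio of 1.22, while cold 2 differed from normal 2 by 0.10. For col1a2 the log2 ratios were 0.88 and 0.16. The labelled log2 fold change was 0.66 ± 0.39 (SE, n = 2 arrays per condition, limma adjusted p = 1.0) for col1a1a and 0.52 ± 0.37 for col1a2 (limma adjusted p = 1.0). The normal arrays alone differed by 0.56 for col1a1a and the cold arrays also by 0.56, so the difference between labels was close to that within a label.

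The other probe sets of these genes gave the same order. For col1a1a the other one read 48.0 (normal 1), 145 (cold 1), 59.8 (normal 2) and 91.7 (cold 2). For col1a2 it read 57.8, 66.5, 45.1 and 58.3. Each cold array was therefore above each normal array on all 4 probe sets of col1a1a and col1a2. The other col1a2 probe set was below the signal filter, and its cold 2 value of 58.3 barely exceeded the 57.8 of normal 1. The other col1a1a probe set reached the filter only through its cold arrays, since both of its normal signals were under 74.5. Its order is thus not separate support. Of all genes kept, each taken at 1 probe set, 8.78% had this order. That share does not apply to several probe sets of a gene or to probe sets below the filter. The log2 ratios were 1.59 and 0.62 for the other col1a1a probe set and 0.20 and 0.37 for the other col1a2 probe set. Both col1a1a probe sets are of a design that can match more than 1 transcript, so a share of their signal from a related collagen gene cannot be told apart.

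Among all 46 genes, 8 had several probe sets. The sign of cold against normal was the same on all probe sets of a gene in 5 of the 8 for arrays numbered 1, in 5 for arrays numbered 2, and in 3 for both numbers. Those 3 were col1a1a, col1a2 and fbln1. The fibronectin gene fn1a was not among them: its other probe sets read 63.0, 48.8, 56.4 and 60.8, and 41.7, 39.9, 47.3 and 49.6, in the order normal 1, cold 1, normal 2, cold 2, both lower on cold 1 than on normal 1.

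The order of the arrays varied among the other fibrillar collagens. Type V collagen sits inside type I fibrils and limits their width, and its gene col5a2a had a signal of 127 (normal 1), 113 (cold 1), 142 (normal 2) and 155 (cold 2). It was lower on cold 1 than on normal 1, with log2 ratios of -0.16 and 0.13. Its other probe set, below the signal filter, had the opposite sign on arrays numbered 1, at 13.98, 18.95, 15.72 and 16.19. The cartilage collagen genes col2a1a, col11a1a and col11a2 were below the signal filter, between 39.3 and 80.2 on every array. Of these, col2a1a had each cold array above each normal array, by a small margin, at 53.3, 61.3, 39.3 and 53.6.

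**Figure D2:**
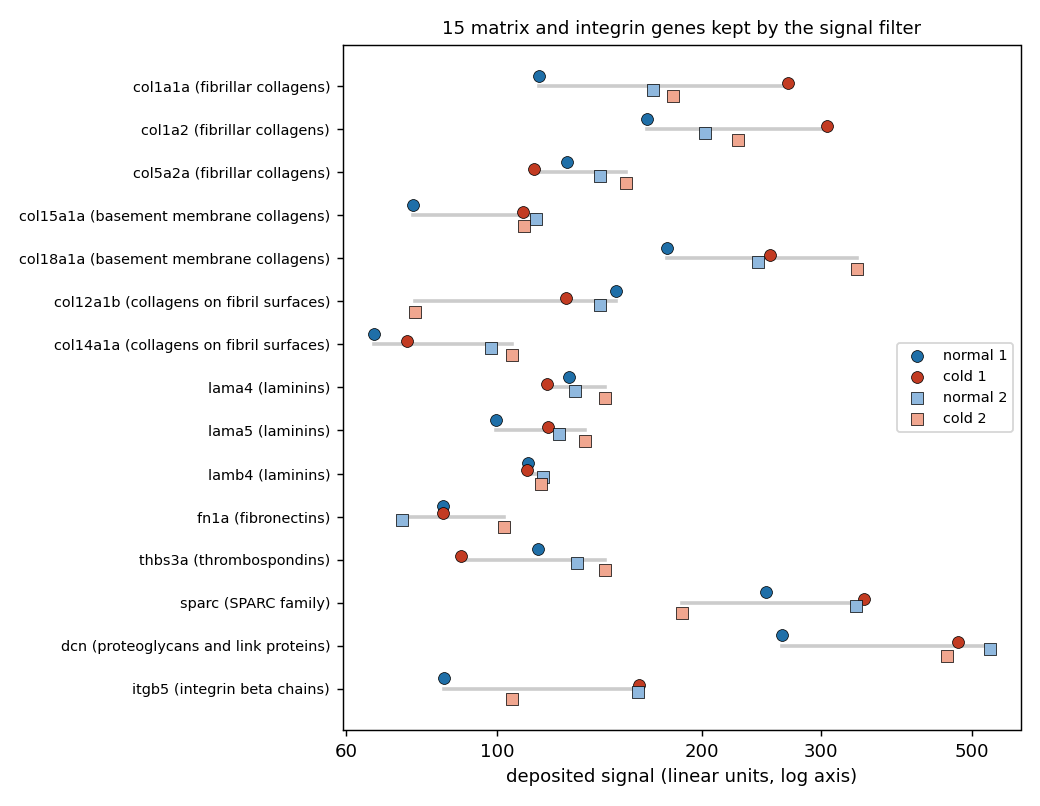
Deposited signal (linear units on a log axis) of the 15 matrix and integrin genes kept, with 1 point per array and a grey line from the lowest to the highest array. Points of a gene are shifted slightly up or down by array so that equal values stay visible. Red and pink points (cold) lie to the right of both blue points (normal) for col1a1a, col1a2, col18a1a and, by a narrow margin on cold 1, fn1a.

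A basement membrane collagen differed by the same amount within both numbers. Col18a1a encodes type XVIII collagen, a heparan sulfate bearing collagen of vessel and epithelial basement membranes, whose cleaved end is endostatin. Its signal was 178 (normal 1), 252 (cold 1), 242 (normal 2) and 339 (cold 2). The log2 ratios were 0.51 and 0.49, nearly equal, and the labelled log2 fold change was 0.50 ± 0.39 (SE, n = 2 per condition, limma adjusted p = 1.0). Cold 1 nevertheless lay only just above normal 2. Col15a1a, for the related type XV collagen, had 75.2 on normal 1 and between 109 and 114 on the other 3 arrays, so that only normal 1 stood apart. Its paralogue col15a1b, below the filter, read 14.1, 36.9, 25.2 and 16.6, high on cold 1 and normal 2.

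Collagens that coat fibrils held the only gene kept that was lower on both cold arrays than on both normal arrays. Col12a1b encodes type XII collagen, which links fibrils to their surroundings, and read 149.6 (normal 1), 126 (cold 1), 142 (normal 2) and 75.7 (cold 2). The groups did not overlap, and the gap came mostly from cold 2. The log2 ratios were -0.24 and -0.90, and the labelled log2 fold change was -0.57 ± 0.35 (SE, n = 2 per condition, limma adjusted p = 1.0). Col14a1a, for the similar type XIV collagen, read 65.8, 73.8, 98.0 and 105, rather different between numbers and little between conditions. The type IX collagen genes col9a1b, col9a2 and col9a3, which coat cartilage fibrils, were below the filter, between 17.7 and 54.2.

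The remaining collagens were all below the filter. Col10a1b, a type X collagen gene of cartilage and bone, had the widest ratio of all 46 genes between arrays numbered 1: 42.0 on normal 1 and 205 on cold 1, a log2 ratio of 2.29, against 39.3 on normal 2 and 44.1 on cold 2. Cold 1 alone was high. Its paralogue col10a1a had another pattern, 128, 84.6, 29.9 and 88.7, in which normal 2 alone was low. Col6a3, of the beaded filaments that type VI collagen forms around cells, read 50.01, 99.5, 83.4 and 66.1, just under the filter. Col17a1b, col8a1a, col28a1a and col28a2a each ranged less than 1.5-fold over the 4 arrays.

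Laminins, the cross-shaped trimers on which basement membranes assemble, varied little. Lama4, an alpha chain of vessel laminins, read 128 (normal 1), 119 (cold 1), 130 (normal 2) and 144 (cold 2). Lama5, the other main alpha chain of vessel walls, read 99.6, 119, 123 and 135. The beta chain gene lamb4 read 111, 111, 117 and 116, with log2 ratios of 0.00 and -0.01. No laminin kept had groups that separated. The 4 laminin genes below the filter (lamb1a, lamb2l, lamc1 and lamc3) lay between 10.9 and 76.1, and the nidogen gene nid1a, whose product ties laminin to collagen networks, lay between 7.01 and 10.9.

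Fibronectin and the thrombospondins are adhesive glycoproteins that bind integrins. Fn1a read 83.2 (normal 1), 83.4 (cold 1), 72.5 (normal 2) and 102 (cold 2), with log2 ratios of 0.00 and 0.50. Its groups did not overlap, yet normal 1 and cold 1 were all but equal. The paralogue fn1b, below the filter, had 9.15 (normal 1), 22.6 (cold 1), 57.0 (normal 2) and 20.9 (cold 2), a 6.23-fold range in which the 2 normal arrays were the extremes. Thbs3a read 115, 88.6, 131 and 144, lowest on cold 1. Below the filter, thbs1b read 5.07, 13.0, 11.2 and 8.52, and thbs4b 51.0, 95.5, 79.3 and 64.6, both lowest on normal 1 and highest on cold 1.

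SPARC, decorin and the integrin beta 5 chain differed in opposite directions between the numbers. Sparc, a collagen-binding protein of glia and vessels, had a signal of 248 (normal 1), 346 (cold 1), 337 (normal 2) and 187 (cold 2). Cold 2 was lowest, and the log2 ratios were 0.48 and -0.85. Dcn, the small proteoglycan decorin that decorates collagen fibrils, read 263, 478, 531 and 460.2, so that normal 1 alone was low and the log2 ratios were 0.86 and -0.21. The normal arrays were 2.02-fold apart in dcn.

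Itgb5, whose product pairs with an alpha chain to bind vitronectin, read 83.5 (normal 1), 162 (cold 1), 161 (normal 2) and 105 (cold 2). Cold 1 and normal 2 were high, and the log2 ratios were 0.95 and -0.61. The labelled log2 fold change was 0.17 ± 0.42 (SE, n = 2 per condition, limma adjusted p = 1.0) for itgb5 and -0.19 ± 0.45 (limma adjusted p = 1.0) for sparc. Neither direction was stable. Without normal 1 or without cold 1 the value for itgb5 was -0.30 or -0.14, and without normal 2 or without cold 2 that for sparc was 0.04 or 0.26.

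Integrin alpha chains were all below the filter. Itga2b, the platelet and thrombocyte integrin chain, read 19.2 (normal 1), 55.2 (cold 1), 84.9 (normal 2) and 37.2 (cold 2). Itga6b, for a laminin receptor chain, read 27.9, 42.8, 46.1 and 33.7. Both were higher on cold 1 and normal 2 than on the other arrays, as itgb5 was. The fibronectin receptor chain itga5 lay between 18.5 and 23.7 and the leukocyte chain itgae.2 between 20.2 and 30.4. Among proteoglycans and link proteins below the filter, the versican gene vcanb read 24.2, 44.2, 30.7 and 27.7, and hapln2, a link protein of hyaluronan matrix, read 67.8, 39.8, 64.1 and 58.6, lowest on cold 1. Biglycan (bgnb) read 18.6, 23.3, 36.6 and 35.8, hapln1a between 51.5 and 57.7, and the fibulin gene fbln1 between 42.1 and 53.0. Hapln1a and hapln2 had both cold arrays below both normal arrays, hapln1a only by 52.4 on cold 2 against 52.6 on normal 2. The other probe sets of hapln1a were all higher on cold 1 than on normal 1.

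Counted together, 1 of the 15 genes kept, col1a1a, had a signal on cold 1 at least 2-fold that on normal 1 (6.67%), where 8.61% of all genes kept had. None was at least 2-fold lower, where 5.00% of genes were. Between arrays numbered 2, none was at least 2-fold higher or lower, where 2.49% and 3.93% of genes were. The shares of matrix genes were thus near or below those of all genes kept.

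With no filter on signal, 6 of all 46 genes had at least 2-fold more signal on cold 1 than on normal 1 (col10a1b, col15a1b, col1a1a, fn1b, itga2b and thbs1b, 13.0%), where 7.20% of all genes had, and none was lower by that much, where 4.01% were. Between arrays numbered 2, 1 gene (col10a1a) was at least 2-fold higher, where 1.97% were, and 2 genes (fn1b and itga2b) were at least 2-fold lower, where 3.42% were. Of these, only col1a1a was above the signal filter. Signals of the 31 genes below it ran from 5.07 to 205.

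Both cold arrays were above both normal arrays in 4 of the 15 genes kept (col1a1a, col1a2, col18a1a and fn1a, 26.7%), against 8.78% of all genes kept, and below both in 1 (col12a1b, 6.67%), against 5.47%. With no filter on signal the counts were 8 of 46 (17.4%) and 3 of 46 (6.52%), against 9.76% and 7.99% of all genes. Among the genes kept, the former count was 3 after either quantile normalization or centring on the median. Cold exceeded normal within both numbers in 6 of the 15 genes, the above 4 with col14a1a and lama5, against 17.0% of all genes kept. Among all 46 genes it did so in 11 (23.9%), against 17.8% of all genes. In 2 genes, col12a1b and lamb4, cold was lower within both, or 13.3% against 11.8%. The sign differed between the numbers in 7 of the 15, with 4 higher only on cold 1 (col15a1a, dcn, itgb5 and sparc) and 3 only on cold 2 (col5a2a, lama4 and thbs3a). That is 46.7%, against 71.2% of all genes kept, and over all 46 genes 60.9% against 67.1%. Shares of the genes kept rest on 15 genes, and none was tested.

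**Figure D3:**
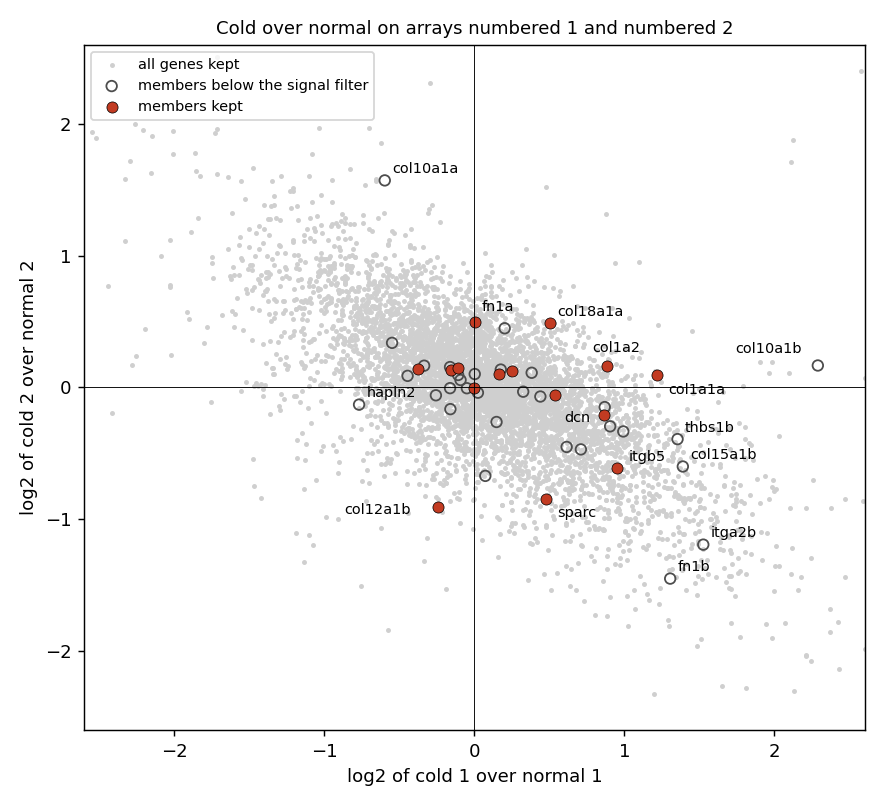
Log2 ratio of cold to normal on arrays numbered 1 (x axis) against that on arrays numbered 2 (y axis), for the 15 matrix and integrin genes kept (red), the 31 below the signal filter (open circles) and all genes kept (grey, 30 of them outside the range drawn). Col1a1a, col1a2 and col18a1a lie right of and above 0, col12a1b lies left of and below 0, and itgb5, sparc, itga2b and fn1b lie at lower right, higher in cold within arrays numbered 1 and lower within arrays numbered 2.

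As a whole the 15 genes had a median log2 ratio of 0.25 on arrays numbered 1 (quartiles -0.06 and 0.70) and 0.10 on arrays numbered 2 (quartiles -0.13 and 0.14), beside 0.06 and 0.01 over all genes kept. Over all 46 genes the medians were 0.17 and -0.01, beside 0.02 and 0.01 over all genes.

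Marker sums of some other cell types were highest on the same arrays as some matrix genes. Other matrix genes, such as col5a2a and thbs3a, were lowest on cold 1. The matches below were seen after the values, and no association was tested. The 15 skeletal muscle markers on the array, none of them a matrix gene, were summed over the 14 kept. The sum was 6632 on cold 1, against 1874 and 2207 on the normal arrays and 2169.5 on cold 2. At least 2-fold more signal on cold 1 than on normal 1 was found in 9 of the 14, against 8.61% of all genes kept. Among the 9, pvalb1 read 31.8, 475, 49.9 and 76.0 and reached the filter only through cold 1. The widest ratio was that of the calcium-buffering muscle parvalbumin gene pvalb2, which went from 76.1 on normal 1 to 1527 on cold 1. Of the 14, 3 were lower on cold 1 than on normal 1: acta1a, atp2a1 and tnni2a.4. Cold 1 is the array on which col1a1a, col1a2 and col10a1b were also highest, and the part of muscle RNA in those values was not tested. The muscle sum on cold 2 lay within the range of the normal arrays.

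The 13 skin and epithelium markers summed over the 6 kept to 1446 and 1794 on the normal arrays and 2039 and 2643 on the cold arrays. In 4 of the 6, both cold arrays were above both normal arrays, against 8.78% of all genes kept. In tp63, a transcription factor of basal epidermis, both were below, at 145, 119, 132 and 125, and krt8 read 986, 981, 1115 and 995. The keratin gene krt5 read 114 (normal 1), 496 (cold 1), 249 (normal 2) and 914 (cold 2). Col18a1a had the same order of arrays, from normal 1 over normal 2 and cold 1 to cold 2, and its relation to these markers was not tested. Col17a1b, the collagen that anchors epithelial cells to their basement membrane, read 33.2, 29.7, 38.4 and 34.3, below the filter. Its other probe set read 27.3, 20.1, 22.7 and 25.9, and its probe sets differed in sign on arrays numbered 2.

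The 9 endothelium and pericyte markers summed over the 5 kept to 481 (normal 1), 1019 (cold 1), 892 (normal 2) and 613 (cold 2). The 12 red blood cell markers summed over the 10 kept to 14769, 21749, 23184 and 13041 in the same order. Both sums were highest on cold 1 and normal 2, as were itgb5, itga2b, itga6b, sparc, col15a1b and further members such as dcn and col6a3. The order was not particular to vessel and blood: the neuron, astroglial, oligodendrocyte and microglial sums were also highest on these arrays. It requires cold 1 above normal 1 and cold 2 below normal 2. That was so in 37.3% of all genes kept and 26.7% of the 15 matrix genes kept. With no filter on signal it was so in 33.6% of all genes and 39.1% of the 46 matrix genes. Most of the red blood cell sum was the globin gene hbaa1, at 12037, 15330, 15571 and 10831. Of the 10 red blood cell markers kept, 2 were lower on cold 1 than on normal 1. These were hbae3 and urod, and urod read 95.9, 66.4, 89.0 and 110. The vascular receptor gene kdrl read 149, 347, 282 and 233, and the smooth muscle actin gene acta2 69.7, 293, 275 and 79.5. On the same list, tagln (88.7, 187, 131 and 71.7) was also highest on cold 1 and normal 2. So was tie1, below the filter, at 33.2, 53.4, 59.2 and 36.8. Other markers on the list had other orders: flt4 was highest on cold 2 (89.9, 107, 98.6 and 125), tek read 83.5, 86.3, 105 and 104, and cldn5a, notch3 and erg, below the filter, were lower on cold 1 than on normal 1. The part of vessel and blood content in these matrix values was not tested.

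The 11 markers on the array of meningeal and perivascular fibroblasts, the main source of brain fibrillar collagen, summed over the 7 kept to 3900 and 4057 on the normal arrays, 3694 on cold 1 and 4987 on cold 2, with medians of 0.16 and 0.18. Of the 7, 5 were higher on cold 1 than on normal 1. Both cold arrays were above both normal arrays in ptgdsb.2 and postnb, against 8.78% of all genes kept. The sum depended on ptgdsb.1, a prostaglandin D synthase gene, which read 1351, 520.1, 827 and 1300.3. Without this gene, left out after its values were seen, the other 6 summed to 2549, 3174, 3229.8 and 3686. Most of that sum was its paralogue ptgdsb.2, at 1948, 2440, 2279 and 2817. Among the rest, prrx1a and postnb were higher in cold within both numbers and aldh1a2 was lower within both. Pcolce2b and foxc1a differed in sign between the numbers. The part of fibroblast RNA in the collagen values was not tested. The 9 cartilage and bone markers summed over the 3 kept to 556, 448, 343 and 591. Most of that spread was spp1 (257, 158, 82.1 and 322), and without it, again left out after its values were seen, the other 2 summed to 299, 290.1, 261 and 269.7. The part of cartilage or bone RNA in col10a1b was not tested.

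**Figure D4:**
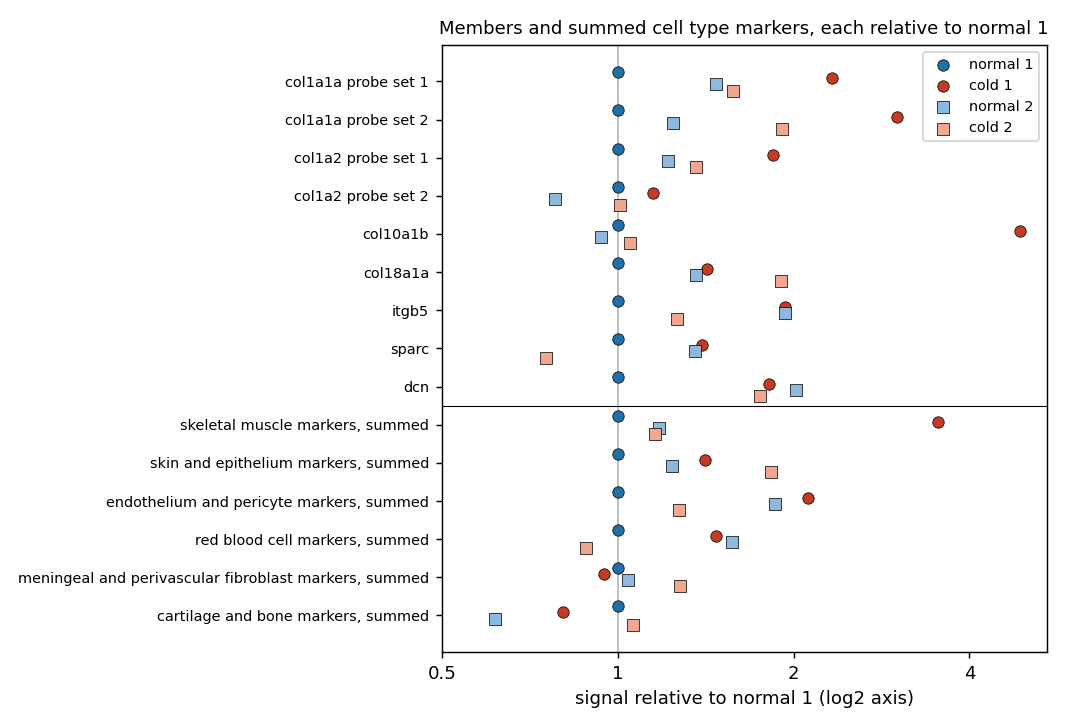
Signal of selected probe sets (above the line) and summed signal of cell type marker lists (below the line) on each array, relative to normal 1, on a log2 axis. The skeletal muscle sum is 3.54 times normal 1 on cold 1 and 1.16 times on cold 2, and the endothelium and red blood cell sums are high on cold 1 and normal 2, the arrays on which itgb5 is also high.

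Genes that make, bind or signal from the matrix but are not among the 46 were followed as 4 lists, and limma called 0 genes in each. For comparison, 8.78% of all genes kept had both cold arrays above both normal arrays and 5.47% both below. On cold 1, 8.61% of all genes kept were at least 2-fold higher than on normal 1 and 5.00% lower. For cold 2 against normal 2 these shares were 2.49% and 3.93%. Of 19 genes that fold, hydroxylate, export or cross-link collagen, 10 were kept, and their median log2 ratios were 0.04 and 0.00. None was at least 2-fold apart within a number. The lysyl hydroxylase gene plod3 had both cold arrays above both normal arrays, at 83.6, 138, 116 and 143, and the prolyl hydroxylase gene p4ha2 both below, at 152, 146, 159 and 139, in the order normal 1, cold 1, normal 2, cold 2. The procollagen proteinase enhancer gene pcolce2b, also on the fibroblast list, read 91.9, 183, 245 and 146. The peptidyl-prolyl isomerase gene fkbp9 read 186, 122, 129 and 220.2, and the coat protein gene sec23a, needed to export procollagen from the endoplasmic reticulum, 599.6, 402, 533 and 939.8. Both were low on cold 1 and normal 2, opposite to itgb5.

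Of 25 genes for focal adhesion proteins, 19 were kept, none at least 2-fold apart within a number, with median log2 ratios of 0.11 and -0.07. The focal adhesion kinase paralogues ptk2aa and ptk2ab read 209.6, 313, 291 and 230.4, and 132, 223, 247 and 197, each highest on cold 1 or normal 2. The adaptor gene lims1, which joins integrin-linked kinase to the adhesion, read 178, 219.9, 202 and 119. Both cold arrays were above both normal arrays in 2 of the 19, the actin-binding genes vaspb and tns1b, and below both in none. Of all genes kept, 8.78% were above and 5.47% below.

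Of 11 other matrix receptor genes, 8 were kept, with median log2 ratios of -0.12 and -0.13. Within numbers, 1 gene differed at least 2-fold upward and 1 downward on cold 1, and 1 downward on cold 2. Dystroglycan (dag1), a laminin receptor of glial endfeet and muscle, read 68.8, 161, 194 and 80.4, high on cold 1 and normal 2. The syndecan gene sdc4, for a heparan sulfate co-receptor of fibronectin, had the reverse order at 1051, 359.8, 362 and 706. The glypican gene gpc1b read 518, 395, 700.0 and 478, lower on both cold arrays than on both normal arrays, as was gpc4.

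Of 27 other matrix proteins outside the rule, 14 were kept, with median log2 ratios of 0.03 and -0.06. Only efemp2b, a fibulin of elastic fibres, differed by at least 2-fold between normal 1 and cold 1, at 102, 263, 202 and 139. Both cold arrays were above both normal arrays in 1 of the 14, postnb, against 8.78% of all genes kept. Both were below in 2, ccn1 and the vitronectin gene vtnb (164, 145, 229 and 147), against 5.47%. Of 2 further genes on this list, mfap1 (239, 297, 157 and 123) encodes a nuclear protein of splicing despite its name, and dmd (114, 151, 191 and 166) encodes dystrophin, which sits inside the membrane.

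**Figure D5:**
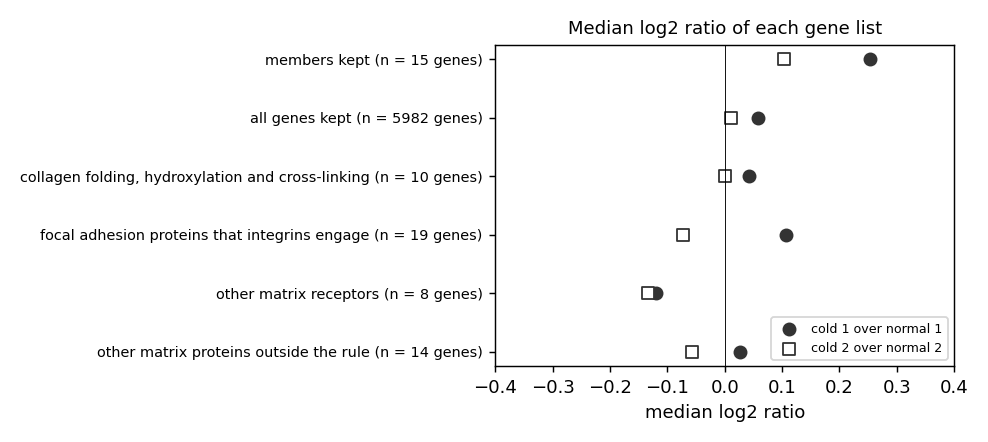
Median log2 ratio of cold to normal on arrays numbered 1 (filled circles) and numbered 2 (open squares) for the matrix and integrin genes kept, all genes kept and 4 related gene lists. The matrix and integrin genes have medians of 0.25 and 0.10, and the other lists lie between -0.13 and 0.11.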

How the data were processed

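Brain RNA pools were hybridized to 1-colour arrays and grouped by their labels. Per probe set and array, the authors deposited a linear intensity. The submitters' processing notes name MAS5. Its version and scaling target and the detection calls are not stated in the sources used here. MAS5 scales each array globally, which would hide a shift shared by most transcripts.

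Each intensity was taken to log2, control probe sets were removed, and the 9301 of 15502 probe sets whose mean log2 signal reached the 40th percentile were kept. Cold and normal arrays were fitted with limma 3.58.1 (R 4.3.3; unpaired, eBayes with a variance trend, Benjamini-Hochberg over 9301 probe sets, threshold 0.05), after the script was tested on simulated data. Arrays of 1 number hold 1 array per condition, so their ratios have no replicate and no p-value. The study's own procedure (SAM) was not run here. Symbols came from the platform annotation, and all 46 were found unchanged in a current gene table (assembly GRCz12tu), used for names only. No column was left unmapped.

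Members and lists were chosen with earlier results of these data known. By rule, signals are given for members kept and at least 2-fold apart within a number, for up to 2 members kept per class with the highest mean signal, and for up to 3 per direction whose groups did not overlap. Labelled fold changes are given for the last and for the 3 largest ratios of each number. From each list up to 3 genes were named by the smaller of their ratios. Other genes named, such as col5a2a, lamb4, all members below the filter, plod3, p4ha2, vaspb, tns1b, gpc4, cirbpb and single cell type markers, were chosen after their values were seen. Results were also computed without each array, with the replicate number as a block, without the variance trend, after centring or quantile normalization, with 16 added before log2, with the filter at the 60th percentile or none, and with a gene's probe sets averaged.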

Additional observations from a re-analysis of the deposited data

How the results depend on the processing

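No alternative called a matrix or integrin gene. With the replicate number as a block (replicate block), 0 probe sets were called, as without it. Deviations of arrays with the same number from their group means correlated at -0.30 across probe sets, and the numbers were not taken to pair the arrays. With the numbers crossed, 1 probe set of 9301 was called, and no matrix gene.

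With no filter, 6 genes rather than 1 had at least 2-fold more signal on cold 1 than on normal 1, and between arrays numbered 2, 1 was at least 2-fold higher and 2 lower, where none was with it. Then 8 genes rather than 4 had both cold arrays above both normal arrays and 3 rather than 1 had both below (17.4% and 6.52% of 46, against 9.76% and 7.99% of all genes), and the median log2 ratio on arrays numbered 2 was -0.0067 rather than 0.10. With a filter at the 60th percentile, the median on arrays numbered 1 was 0.86 rather than 0.25, over fewer genes, and 0 genes had both cold arrays below. Leaving out each array in turn gave 4 to 9 genes above (9 without cold 1 or normal 2) and 1 to 5 below. An order over 3 arrays is easier to meet, so these counts can only stay or grow. Of all genes kept, 27.8% to 38.3% and 22.4% to 27.1% met it. These alternatives for genes above or below, and the crossed numbers, were chosen after seeing the data.

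For the labelled log2 fold changes of 6 genes, 4 of 24 values without 1 array changed sign and none of 46 other values did. They ranged from -0.30 to 0.64 for itgb5 and from -0.63 to 0.26 for sparc, from 0.38 to 0.94 for col1a1a, from 0.30 to 0.74 for col1a2, from 0.27 to 0.72 for col18a1a and from -0.94 to -0.20 for col12a1b. With no detection calls used here, how far the signals of the 31 genes below the filter exceed background is unknown.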

Other observations

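The summed markers of neurons, glia and immune cells differed less between arrays than the sums of muscle, vessel and blood markers, although single markers ranged widely. The radial glial filament gene gfap read 1069 (normal 1), 376 (cold 1), 357 (normal 2) and 666 (cold 2), and the neuronal gene elavl3 1235, 2188, 869 and 719. The 8 neuron markers summed to 20702 (normal 1), 28104 (cold 1), 25785 (normal 2) and 22089 (cold 2), and the 7 astroglial markers to 15683, 20270.0, 20499 and 19075. The 3 oligodendrocyte markers summed to 9243, 11217, 9922 and 8490.3. In microglia and macrophages, 10 of 12 markers were kept and summed to 9398, 9809, 10827 and 9199.6, with median log2 ratios of -0.21 and 0.32. Of these 10, 2 had both cold arrays above both normal arrays, against 8.78% of all genes kept, and 2 had both below, against 5.47%. Among the latter, spi1b, a transcription factor of myeloid cells, read 174 (normal 1), 93.2 (cold 1), 121 (normal 2) and 92.7 (cold 2). Limma called 0 genes on any of these lists.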
